A study of Mus musculus with 33 samples.

Results

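Described here are 120 guide RNAs (gRNAs) that target the mouse gene Tdgf1 between 0.5 and 2 kb inside its annotated 5′ end, in a CRISPR mutation screen of embryonic stem cells. They are the gRNAs whose target interval has its midpoint in chr9:110944158-110945657 (mm10), and they make up 120 of the 3918 gRNAs of the Tdgf1 library, of which 3908 have a genomic interval and 10 target GFP. The rule for choosing them used position only and no count, but the choice was made with earlier results of these data known. The populations compared were GFP-negative cells, GFP-medium cells and the unsorted bulk, with 3 libraries each, numbered 1 to 3. All 9 libraries came from mouse embryonic stem cells of the Tdgf1-GFP line, in which GFP replaces sequence at the Tdgf1 transcription start site and a dummy guide RNA had been placed at the ROSA26 locus. Cells grew in serum with LIF, GSK-3 inhibitor XV and UO126, gRNAs were electroporated, cells were sorted by fluorescence except for the bulk, and gRNAs were counted by PCR and sequencing of genomic DNA. A replicate number names a replicate of the line. Whether these were separate clones or cultures is not given in the labels, so the spread that p-values rest on is that between these libraries and may be technical. The labels do not say which bases GFP replaced, or whether the targets of the 120 gRNAs are still present on the GFP allele.

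Tdgf1, also called Cripto, encodes a membrane-anchored co-receptor for Nodal, a signalling protein of the early embryo, and is active in embryonic stem cells and the epiblast. In a screen of this kind Cas9 cuts at the target of each gRNA, repair leaves small insertions or deletions, and a gRNA whose mutations lower GFP becomes more frequent among cells sorted for low GFP. The gRNAs that target GFP itself act as positive controls for loss of the signal.

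Tdgf1 spans chr9:110939608-110946158 on the minus strand in the RefSeq annotation of GRCm38.p6, the assembly of mm10, so its 5′ end is the higher coordinate and the gRNAs lie at lower coordinates, inside the gene. No other gene of that annotation overlaps the 1.5 kb. The table used gives gene spans without exons, so it is not stated here which gRNAs fall in an exon or an intron, and spacer sequences of the gRNAs were not used here. Counted in 500-bp windows inward from the 5′ end, 42 gRNAs lay at 500 to 1000 bp (chr9:110945158-110945657), 21 at 1000 to 1500 bp (chr9:110944658-110945157) and 57 at 1500 to 2000 bp (chr9:110944158-110944657). Each interval spanned 22 or 23 bases, and neighbouring midpoints were 6 bp apart in the median. Of the 120 intervals 117 overlapped another. At most 10 intervals, counting the interval itself, overlapped a single one. Most of these gRNAs therefore share target sequence and are not independent tests of separate sites. The longest stretches that no interval covered were chr9:110945006-110945191 (186 bases), chr9:110944655-110944767 (113 bases) and chr9:110944825-110944882 (58 bases).

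Total gRNA counts were 608532 to 719247 in GFP-negative, 379072 to 461825 in GFP-medium and 107960 to 123840 in bulk libraries, so the sorted libraries were the more deeply sequenced. Values below are shares of a library's gRNA counts or CPM, a gRNA's count scaled to the library total. Shares are relative: a gain of these gRNAs and a loss of others look the same. GFP-targeting gRNAs took 4.53%, 8.41% and 6.62% of GFP-negative, 0.155%, 0.408% and 0.0378% of GFP-medium and 0.210% ± 0.0289 (SD, n = 3) of bulk counts.

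In GFP-medium cells the 120 gRNAs together were several times more frequent than in the bulk. They took 13.0%, 11.4% and 15.2% of the counts of GFP-medium libraries 1, 2 and 3, against 3.67%, 3.50% and 3.73% of the bulk libraries. Every GFP-medium library lay above every bulk library, and the means were 13.2% ± 1.93 and 3.63% ± 0.123 (SD, n = 3 each), a 3.63-fold higher share in GFP-medium cells. No test was made of this share.

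By position, GFP-medium cells exceeded the bulk most in the window nearest the 5′ end. At 500 to 1000 bp the share was 8.65%, 5.73% and 8.53% in GFP-medium libraries, against 1.31%, 1.27% and 1.31% in bulk libraries. These did not overlap. At 1000 to 1500 bp it was 1.40%, 2.48% and 0.272% in GFP-medium libraries and 0.749%, 0.594% and 0.733% in bulk libraries. Here GFP-medium library 3 lay below all bulk libraries, and libraries 1 and 2 lay above. At 1500 to 2000 bp it was 2.91%, 3.18% and 6.44% in GFP-medium libraries against 1.61%, 1.64% and 1.69% in bulk libraries, again without overlap.

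The same windows were tested with edgeR's quasi-likelihood fit on summed counts over the whole library, as 79 windows plus the GFP-targeting gRNAs, with Benjamini-Hochberg adjustment at 0.05 over these 80 features. All 3 windows rose in GFP-medium cells against the bulk, where 12.5% of all features were called higher and 3.75% lower. The log2 change was 4.24 at 500 to 1000 bp (SE 0.36, adjusted p = 9.07e-06), the fourth highest of the 80. It was 2.54 at 1000 to 1500 bp (SE 0.65, adjusted p = 0.0187) and 3.13 at 1500 to 2000 bp (SE 0.52, adjusted p = 0.00132). The median of all 80 features was −0.03 in this fit. When libraries were scaled by their total counts that median was −1.56 and the change at 500 to 1000 bp was 2.56. Its distance from the median, 4.27 in the first fit, was then 4.12. With total counts the changes at 1000 to 1500 and 1500 to 2000 bp were 1.00 and 1.34. The middle window was the least certain: its adjusted p was 0.0561 with the replicate number as a block, 0.225 with total counts, and 0.113, 0.128 or 0.110 without bulk library 1, 2 or 3. Its change was 1.68 without GFP-medium library 2 (adjusted p = 0.0467), and that at 1500 to 2000 bp was 2.34 without GFP-medium library 3 (adjusted p = 0.000639).

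The next window inward, at 2000 to 2500 bp, did not pass and had a log2 change of −0.04 in GFP-medium cells against the bulk (adjusted p = 0.972). Further inward, the changes were 1.69 at 2500 to 3000 bp, −0.03 at 3000 to 3500 bp, 2.25 at 3500 to 4000 bp and 1.98 at 4000 to 4500 bp. None of these passed. On the other side, the window of the first 500 bp inside the gene had 4.56. Upstream of the 5′ end, the changes were 4.44, 2.84, 4.39 and 3.61 in successive 500-bp windows out to 2000 bp. All of these passed. In windows of 250 bp, 5 of the 6 rose in GFP-medium cells against the bulk, where 11.8% of the 153 features were called higher. Their log2 changes were 4.48 at 500 to 750 bp, 4.12 at 750 to 1000 bp, 2.95 at 1000 to 1250 bp, 3.60 at 1500 to 1750 bp and 2.76 at 1750 to 2000 bp (edgeR adjusted p between 8.63e-05 and 0.0226). The stretch at 1250 to 1500 bp, which holds only 7 of the gRNAs, had 1.09 and did not pass (adjusted p = 0.561).

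In GFP-negative cells the gRNAs exceeded the bulk by less. They took 4.43%, 4.93% and 5.15% of GFP-negative counts, against 3.67%, 3.50% and 3.73% of bulk counts. Every GFP-negative library lay above every bulk library, with means of 4.83% ± 0.370 and 3.63% ± 0.123 (SD, n = 3 each), a 1.33-fold higher share in GFP-negative cells. With GFP-targeting gRNAs left out of the totals the means were 5.18% ± 0.473 in GFP-negative and 3.64% ± 0.122 in bulk libraries, a 1.42-fold higher share.

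Of the 3 windows only that at 500 to 1000 bp passed the test in GFP-negative cells against the bulk, where 10% of all 80 features were called higher and 1.25% lower. Its share was 1.83%, 2.15% and 1.94% in GFP-negative libraries, against 1.31%, 1.27% and 1.31% in bulk libraries, without overlap. The log2 change was 1.43 (SE 0.32, edgeR adjusted p = 0.0109, median of all features 0.09). When libraries were scaled by their total counts the change was 0.61 and that median was −0.73, so the size of the change depends on the scaling. The call ended with total counts (adjusted p = 0.204), without GFP-negative library 1 or 2 (0.0565 and 0.0873) and without bulk library 1, 2 or 3 (0.137, 0.156 and 0.146), and none of the 6 windows of 250 bp was called (7.84% of all 153 features were called higher there). At 1000 to 1500 bp the share was 0.819%, 1.15% and 1.03% in GFP-negative libraries and 0.749%, 0.594% and 0.733% in bulk libraries. At 1500 to 2000 bp it was 1.77%, 1.63% and 2.18% in GFP-negative libraries and 1.61%, 1.64% and 1.69% in bulk libraries, which overlapped. The log2 changes at 1000 to 1500 and 1500 to 2000 bp, 1.35 (SE 0.62) and 1.02 (SE 0.48), did not pass (edgeR adjusted p = 0.368 for both). With total counts they were 0.53 and 0.18. Without GFP-medium library 3, however, the window at 1000 to 1500 bp had adjusted p = 0.0307. For comparison, with all libraries the window of the first 500 bp inside the gene had a log2 change of 2.33. Upstream of the 5′ end, successive 500-bp windows out to 2000 bp had 2.99, 2.62, 2.79 and 2.03. All of these neighbouring windows were called higher in GFP-negative cells.

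Set directly against each other, GFP-negative libraries held a smaller share of these gRNAs than GFP-medium libraries. Their mean share in GFP-negative libraries, 4.83% ± 0.370 (SD, n = 3), stood against 13.2% ± 1.93 (SD, n = 3) in GFP-medium libraries, 0.366 times as much (log2 ratio −1.45), and the libraries did not overlap. The windows at 500 to 1000 bp and at 1500 to 2000 bp fell in GFP-negative against GFP-medium cells, where 6.25% of all 80 features were called lower and 2.5% higher. The log2 changes were −2.80 (SE 0.34, edgeR adjusted p = 0.000496) and −2.10 (SE 0.50, adjusted p = 0.0219), with a median of all features of −0.07. The window at 1000 to 1500 bp had −1.19 (SE 0.62) and did not pass (adjusted p = 0.278). Without GFP-medium library 3 it had −1.64 (adjusted p = 0.0315), and without GFP-medium library 2 it had −0.33 (adjusted p = 0.732). The call at 1500 to 2000 bp ended with total counts (adjusted p = 0.0593), without GFP-targeting gRNAs (0.0567), without GFP-negative library 1 or 2 (0.203 and 0.150), and without bulk library 1, 2 or 3 (0.0866, 0.0867 and 0.0852), and without GFP-medium library 3 the change was −1.32 (0.0345). Neighbouring windows also fell: the first 500 bp inside the gene had −2.23 (edgeR adjusted p = 0.00151). That at 1500 to 2000 bp upstream had −1.57 (adjusted p = 0.0198). Upstream windows at 0 to 500, 500 to 1000 and 1000 to 1500 bp had −1.45, −0.22 and −1.60 and did not pass. The 3 comparisons share libraries, so their results are not independent of each other.

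The gRNAs were then set against 3 neighbouring classes by the ratio of their share to that of the class in the same library. In the bulk they were about as frequent as the 123 gRNAs within 0.5 kb of the 5′ end on either side, with ratios of 1.02 to 1.07. That ratio was 0.316 to 0.453 in GFP-negative libraries and 0.419 to 0.627 in GFP-medium libraries, so in both sorted populations these gRNAs were the less frequent of the pair. The mean log2 ratio differed from the bulk by −1.41 in GFP-negative cells and by −0.96 in GFP-medium cells. Between GFP-negative and GFP-medium cells it differed by −0.45, with overlapping libraries.

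Against the 213 gRNAs at the mirror distance, 0.5 to 2 kb upstream of the 5′ end, the GFP-negative libraries stood apart from the GFP-medium and bulk libraries. The ratio was 0.248 to 0.289 in GFP-negative libraries, below the 0.458 to 0.746 of GFP-medium libraries and the 0.585 to 0.682 of bulk libraries. GFP-medium and bulk libraries overlapped. The mean log2 ratio differed by −1.25 between GFP-negative cells and the bulk, by −1.14 between GFP-negative and GFP-medium cells, and by −0.11 between GFP-medium cells and the bulk. The last of these changed sign, to 0.063, without GFP-medium library 2.

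Against the 477 gRNAs of the Tdgf1 body beyond 2 kb the bulk libraries had the lowest ratios. The ratio was 0.470 to 0.829 in GFP-negative, 1.20 to 1.76 in GFP-medium and 0.293 to 0.310 in bulk libraries, with no overlap between any 2 populations. The differences in mean log2 ratio were 1.08 for GFP-negative cells against the bulk, 2.28 for GFP-medium cells against the bulk and −1.20 for GFP-negative against GFP-medium cells. Of these 9 ratio comparisons, 7 had no overlap and reached p = 0.1, the smallest an exact 2-sided permutation test of 3 against 3 libraries can give (adjusted p = 0.129 over the 9). By the same exact test, the ratio near the 5′ end in GFP-negative against GFP-medium cells had p = 0.3 (adjusted p = 0.338), and the upstream ratio in GFP-medium cells against the bulk had p = 0.7 (adjusted p = 0.7). All 9 tests treated the libraries as unpaired, although replicate numbers pair them. No paired test of the ratios was made.

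Single gRNAs were far less reproducible than their sums. In the bulk 117 of the 120 had counts in each library, whereas 68, 89 and 61 had counts in GFP-negative libraries 1, 2 and 3, and 48, 65 and 37 in GFP-medium libraries 1, 2 and 3. Of the 120 gRNAs 30 had counts in all 3 GFP-negative libraries and 9 had none in any. In GFP-medium libraries 9 had counts in all 3 and 27 in none. Over the whole library 10.2% of gRNAs had counts in all GFP-negative libraries and 34.0% in none, and 3.91% had counts in all GFP-medium libraries and 55.2% in none. Without a count in any sorted library were 6 of the 120 (5%), against 31.2% of all gRNAs.

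A few gRNAs, and not the same ones in each library, made up much of the sorted counts. The most counted took 11.5%, 4.83% and 15.0% of the group's counts in GFP-negative libraries 1, 2 and 3, and 20.3%, 14.5% and 22.7% in GFP-medium libraries, against 4.10%, 2.61% and 2.98% in bulk libraries. The 5 most counted took 36.2%, 20.6% and 48.4% in GFP-negative, 63.1%, 49.4% and 67.9% in GFP-medium and 13.7%, 11.3% and 12.4% in bulk libraries. Above 1000 CPM were 15, 17 and 15 of the 120 in GFP-negative, 18, 22 and 19 in GFP-medium and 1, 0 and 2 in bulk libraries. Of all gRNAs, between 6.33% and 7.15% were above 1000 CPM in GFP-negative libraries and between 3.88% and 5.16% in GFP-medium libraries. Across the 120 gRNAs, Spearman's rho between 2 libraries of 1 population was 0.045 to 0.246 for GFP-negative, 0.008 to 0.144 for GFP-medium and 0.166 to 0.426 for bulk libraries. This is a correlation across gRNAs, most of which overlap, and the many zeros in sorted libraries enter it as ties.

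GFP-negative and GFP-medium libraries of the same number shared more gRNAs than libraries of different numbers. Of the gRNAs of the group counted in a GFP-medium library, 87.5% to 90.8% were also counted in the GFP-negative library of that number, which was 54.1% to 66.3% of those counted in the GFP-negative library. Between different numbers this was 52.1% to 81.2% of the GFP-medium and 30.9% to 61.8% of the GFP-negative list. Spearman's rho over the 120 was 0.524 to 0.645 for the same number and −0.02 to 0.24 for different numbers. All other gRNAs of the library gave 0.556 to 0.635 and 0.205 to 0.281.

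The gRNAs with the highest mean CPM in GFP-medium cells lay mostly at 500 to 1000 bp and owed it to 1 or 2 libraries. The highest mean was that of chr9:110945558-110945580 (589 bp inside), with 0, 768 and 34630 CPM in GFP-medium libraries, against 117, 258 and 315 CPM in bulk libraries. The next, chr9:110944623-110944645 (1524 bp inside), had 0, 76.5 and 34634 CPM in GFP-medium libraries against 343, 242 and 417 CPM in bulk libraries. In GFP-negative libraries it had 0, 185 and 7743 CPM, so its high value fell in number 3 in both sorted populations. It was the most counted of the 120 gRNAs in both of those libraries.

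For chr9:110945335-110945357 (812 bp inside) GFP-medium libraries gave 2.17, 16490 and 11396 CPM against 226, 347 and 834 CPM in bulk libraries. For chr9:110945516-110945537 (631.5 bp inside) they gave 26294, 2.64 and 0 CPM against 769, 275 and 241 CPM in bulk libraries. The last had 3046, 291 and 110 CPM in GFP-negative libraries, again highest in number 1. These 2 gRNAs were the most counted of the group in GFP-medium libraries 2 and 1.

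Next came chr9:110945200-110945222 (947 bp inside), with 23305, 1630 and 0 CPM in GFP-medium libraries against 443, 129 and 27.8 CPM in bulk libraries. Its 2 GFP-medium libraries with counts lay above all bulk libraries. It had the smallest adjusted p of the 120 for a higher level in GFP-medium cells (edgeR adjusted p = 0.187, DESeq2 adjusted p = 0.0401). Nearer the 5′ end, at 781 bp inside, chr9:110945366-110945388 had 6173, 216 and 10869 CPM in GFP-medium libraries and 435, 767 and 1112 CPM in bulk libraries. In GFP-negative libraries it had 1383, 1699 and 1106 CPM, 2 of which lay above all bulk libraries.

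The other two in this set were carried by 1 GFP-medium library each. At 1165 bp inside, chr9:110944982-110945004 had 0, 16427 and 55.6 CPM in GFP-medium libraries against 928, 509 and 630 CPM in bulk libraries. At 692 bp inside, chr9:110945455-110945477 had 11883, 140 and 0 CPM in GFP-medium libraries against 1504, 371 and 843 CPM in bulk libraries. In GFP-negative libraries the second of these had 3457, 416 and 69.0 CPM. None of the 8 gRNAs passed edgeR's test in any comparison.

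Ranked by mean CPM in GFP-negative cells, 3 of the leading 8 gRNAs were among those already named: chr9:110944623-110944645, chr9:110945366-110945388 and chr9:110945455-110945477. Of the others, chr9:110944443-110944465 (1704 bp inside) had 5100, 209 and 749 CPM in GFP-negative libraries against 384, 565 and 435 CPM in bulk libraries. In GFP-medium libraries it had 238, 2480 and 0 CPM, so its highest GFP-medium value was in another number. For chr9:110945272-110945294 (875 bp inside) GFP-negative libraries gave 13.0, 12.5 and 5231 CPM and bulk libraries 41.8, 153 and 509 CPM. It had 0, 0 and 11959 CPM in GFP-medium libraries. The gRNA chr9:110944798-110944820 (1349 bp inside) differed from these in that its 5211 CPM in GFP-negative library 3, against 109, 72.7 and 556 CPM in bulk libraries, came with no count in any GFP-medium library and none in GFP-negative libraries 1 and 2.

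Only 3 of the 120 gRNAs (2.5%) lay above all bulk libraries in every GFP-negative library, against 1.51% of all gRNAs, and they were picked after their values were seen. At 1230.5 bp inside, chr9:110944917-110944938 had 1362, 1109 and 2416 CPM in GFP-negative libraries against 685, 630 and 760 CPM in bulk libraries. Its GFP-medium values were 36.8, 5305 and 692 CPM. At 955.5 bp inside, chr9:110945192-110945213 had 536, 1723 and 2789 CPM in GFP-negative libraries against 334, 363 and 389 CPM in bulk libraries. It had the smallest edgeR adjusted p of the 120 for a higher level in GFP-negative cells, 0.727, and GFP-medium values of 10.8, 929 and 2.22 CPM. At 611 bp inside, chr9:110945536-110945558 had 746, 378 and 437 CPM in GFP-negative libraries against 301, 202 and 139 CPM in bulk libraries, and 9099, 0 and 2.22 CPM in GFP-medium libraries.

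No gRNA of the group lay above all bulk libraries in all 3 GFP-medium libraries, against 0.74% of all gRNAs. In at least 1 GFP-medium library 66 of the 120 did, of which 48 (40%) did so in 1 library and 18 (15%) in 2, against 14.0% and 3.39% of all gRNAs. Below all bulk libraries in every sorted library of a population lay 30 of the 120 (25%) for GFP-negative cells and 35 (29.2%) for GFP-medium cells, against 42% and 58.3% of all gRNAs. Between the sorted populations, 1 of the 120 (0.833%) lay above all GFP-medium libraries in every GFP-negative library and none below, against 2.12% and 0.281% of all gRNAs. This was chr9:110944476-110944498 (1671 bp inside), also picked after its values were seen. It had 450, 58.4 and 8.22 CPM in GFP-negative libraries and no counts in GFP-medium libraries. Its bulk values of 685, 549 and 426 CPM were higher than those of every GFP-negative library but the first, which exceeded the lowest bulk value.

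In the test of single gRNAs 115 of the 120 passed the filter on low counts, among 3172 of the library. EdgeR called none of them higher in either sorted population against the bulk, and it called 6 lower in GFP-negative cells and 18 lower in GFP-medium cells. Over all tested gRNAs 0% were called higher in either population, while 22.2% were called lower in GFP-negative cells and 40.3% in GFP-medium cells. At an unadjusted p under 0.05 the 115 gave 0 higher and 8 lower in GFP-negative cells, and 0 higher and 25 lower in GFP-medium cells. Over all tested gRNAs 27.9% were lower at that threshold in GFP-negative cells and 49.7% in GFP-medium cells, and 0.158% and 0.221% were higher. Between GFP-negative and GFP-medium cells 0 were called in either direction. At an unadjusted p under 0.05, 18 were higher and 1 lower, against 22.5% and 1.99% of all tested gRNAs. DESeq2 called 0 higher and 12 lower in GFP-negative cells, 1 higher and 25 lower in GFP-medium cells, and 10 higher and 4 lower in GFP-negative against GFP-medium cells. Its shares over all tested gRNAs were 0.189% and 31.9%, 0.567% and 51.9%, and 14.2% and 1.64% in the same order. DESeq2 gave no adjusted p, and so made no call, for several gRNAs named above for high means. These were chr9:110945558-110945580, chr9:110944623-110944645, chr9:110945516-110945537, chr9:110944982-110945004, chr9:110945272-110945294 and chr9:110944798-110944820. Limma-voom called 0 of the 115 in all 3 comparisons. Of all tested gRNAs it called 0%, 0% and 0.0315% higher in the same order, and 0% lower in each.

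The median fitted log2 change of the 115 gRNAs in edgeR was 0.12 in GFP-negative cells against the bulk, with −1.67 over all tested gRNAs. It was −0.29 in GFP-medium cells against the bulk, with −6.44 over all, and −0.12 in GFP-negative against GFP-medium cells, with 1.04 over all. Fitted changes of gRNAs without counts in a population depend on the prior count of the fit, so these medians describe the list and bound nothing. With the replicate number as a block, 0 of the 115 were lower in GFP-negative cells where 0% of all tested gRNAs were lower, and 21 were lower in GFP-medium cells, where 39.5% were.

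By position, all 6 that fell in GFP-negative cells lay at 1500 to 2000 bp, and 5 of them went uncounted in every GFP-negative library. Of the 18 that fell in GFP-medium cells 15 lay at 1500 to 2000 bp, where 54 were tested, 1 at 1000 to 1500 bp of 21 tested, and 2 at 500 to 1000 bp of 40 tested. Of these 18, 16 went uncounted in every GFP-medium library. The 6 and 15 were 11.1% and 27.8% of the 54 tested at 1500 to 2000 bp, below the 22.2% and 40.3% of all tested gRNAs. Whether the windows differ in this count was not tested.

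Among the gRNAs without a count in any sorted library, chr9:110944330-110944352 (1817 bp inside) was the most frequent in the bulk, with 234, 412 and 445 CPM. Taking 3 counts per library as the limit that a count of 0 allows, it was at least 78.0-fold lower in GFP-negative cells (edgeR adjusted p = 0.0331) and at least 51.7-fold lower in GFP-medium cells (0.0299). These limits cover counting error only. This gRNA and the 3 named after it were chosen for having no sorted count and high bulk values. The direction of their changes was fixed by that choice. With the replicate number as a block, the GFP-negative calls of this gRNA and of the 3 named after it were lost (adjusted p = 0.0936 for each). With bulk values of 585, 153 and 204 CPM, chr9:110944437-110944458 (1710.5 bp inside) was at least 67.4-fold lower in GFP-negative cells (adjusted p = 0.0290) and 44.7-fold lower in GFP-medium cells (0.0279). Both have neighbours with overlapping targets that were counted in sorted cells: chr9:110944443-110944465, named above for its 5100 CPM in GFP-negative library 1, starts only bases away from the second. The first, chr9:110944330-110944352, also overlaps chr9:110944315-110944337, which is named below and had no count in any sorted library. Those overlapping gRNAs are therefore not separate sites. With 259, 291 and 157 CPM in the bulk, chr9:110944498-110944519 (1649.5 bp inside) was at least 50.6-fold lower in GFP-negative (adjusted p = 0.0182) and 33.5-fold lower in GFP-medium cells (0.0197). With 41.8, 121 and 315 CPM, chr9:110944315-110944337 (1832 bp inside) was at least 34.2-fold lower in GFP-negative (adjusted p = 0.0142) and 22.7-fold lower in GFP-medium cells (0.0162).

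Even gRNAs whose targets nearly coincide were often counted unevenly in sorted libraries. In the group 26 pairs of gRNAs start 1 bp apart, which over 3 libraries makes 78 pairs per population. In GFP-negative libraries both gRNAs were counted in 26 of these, 1 of the pair in 42 and neither in 10. In GFP-medium libraries both were counted in 13, 1 in 34 and neither in 31. In bulk libraries both were counted in all 78. Of the pairs with any count, 61.8% in GFP-negative and 72.3% in GFP-medium libraries had only 1 gRNA counted, close to the 62.8% and 74.2% of such pairs elsewhere in the library. These pairs share libraries and targets, and no test was made.

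At the limits of the interval, the outermost gRNA, chr9:110944162-110944184 (1985 bp inside), had 88.0, 0 and 0 CPM in GFP-negative libraries, 8.66, 0 and 0 CPM in GFP-medium libraries and 142, 250 and 389 CPM in bulk libraries. The first beyond it, chr9:110944136-110944158 (2011 bp inside), had 0, 6.95 and 0 CPM in GFP-negative libraries, no counts in GFP-medium libraries and 1120, 985 and 1223 CPM in bulk libraries. The gRNA nearest the 5′ end, chr9:110945612-110945634 (535 bp inside), had no counts in GFP-negative libraries, 0, 2.64 and 0 CPM in GFP-medium and 91.9, 32.3 and 9.26 CPM in bulk libraries. Just outside on that side, chr9:110945647-110945669 (500 bp inside) had 0, 25.0 and 0 CPM in GFP-negative libraries, no counts in GFP-medium libraries and 134, 258 and 37.1 CPM in bulk libraries.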

How the data were processed

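The values are raw counts of gRNAs per library in 1 table for the Tdgf1 line, as deposited by the authors. The submitters' processing notes name mm10 as the build. The sources used here do not give the counting program, the number of sorted cells or whether intervals count from 0 or 1, and the labels mention no molecular identifiers. The dummy guide was left out of totals and tests. It took 0.104% to 0.370% of all counts in GFP-negative, 0.0198% to 0.178% in GFP-medium and 3.53% to 11.3% in bulk libraries. Sample titles gave the population and replicate number of each library.

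Counts were summed over 500-bp windows from the Tdgf1 5′ end and fitted for all 9 libraries with edgeR 4.0.16 in R 4.3.3 (filterByExpr with a minimum count of 10, TMM, robust quasi-likelihood F test, 2-sided, Benjamini-Hochberg at 0.05). Single gRNAs were fitted the same way. SE is the log2 change divided by the square root of F. All 80 features passed the filter. Alternatives were DESeq2 1.42.0, limma-voom (limma 3.58.1), TMMwsp, total counts, no filter, windows of 250 and 1000 bp, no GFP-targeting gRNAs, a replicate block and leaving out each library. Ratios were compared by exact permutation tests with scipy 1.17.1 in python 3.11.15. On simulated data of GFP-medium against bulk, the window fit over 80 features recovered 6 of 6 windows raised and 6 of 6 lowered 4-fold, with 1 false call. The single-gRNA fit over 3918 gRNAs recovered 3 of 105 raised and 1 of 95 lowered 4-fold. The spread set in the simulations is not given here. The recoveries therefore neither measure the power of the fits on the real libraries nor compare windows with single gRNAs.

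The main fits and the exact tests do not use the replicate numbers. The labels tie each number to a replicate of the line, so the numbers pair the libraries, and the value with a replicate block is given where it changes a call. Over 3172 gRNAs, deviations from the group means of same-numbered libraries correlated at 0.369 to 0.463 between GFP-negative and GFP-medium cells, 0.165 to 0.212 between GFP-negative cells and the bulk, and 0.143 to 0.189 between GFP-medium cells and the bulk.

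The gRNAs and windows were chosen with earlier results of these data known. Named gRNAs were the 8 with the highest mean CPM in GFP-negative and the 8 in GFP-medium libraries, any of the 6 smallest p-values passing upward per comparison (none did), the 4 most frequent in the bulk among those without sorted counts, and those at the limits of the interval. Except for those at the limits, these rules used the counts of the gRNAs themselves. Other gRNAs are said to be picked after their values were seen.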

Additional observations from a re-analysis of the deposited data

How the results depend on the processing

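The share of the 120 gRNAs kept its direction in all 3 comparisons under every alternative run. Leaving out each library gave log2 ratios of 0.36 to 0.47 for GFP-negative and 1.74 to 1.96 for GFP-medium cells against the bulk, and of −1.54 to −1.33 for GFP-negative against GFP-medium cells. With the other gRNAs within 2 kb left out of the totals they were 0.82, 2.67 and −1.85. With GFP-targeting gRNAs left out too, an alternative chosen after seeing the data, they were 0.96, 2.67 and −1.71. Without the most counted of the 120 gRNAs in each library the GFP-medium ratio to the bulk was 1.63. The ratio to upstream gRNAs in GFP-medium cells against the bulk ran from −0.29 to 0.063 when leaving out each library, and was 0.063 without GFP-medium replicate 2. Of the 3 windows, those called higher in GFP-medium cells were 2 to 3 when leaving out each library, 5 of 6 at 250 bp and 1 of 1 at 1000 bp. Of all features 8.75% to 17.5%, 11.8% and 14.3% were called higher in these runs. Those higher in GFP-negative cells were 0 to 2 when leaving out each library, 0 with total counts and 0 at 250 bp. At 1000 bp it was 1 of 1 (1000 to 2000 bp inside, log2 change 1.01, edgeR adjusted p = 0.0486). Of all features 5% to 12.5%, 7.5%, 7.84% and 11.9% were called higher in the same order. Those lower in GFP-negative against GFP-medium cells were 1 to 3 when leaving out each library, and 1 with total counts. They were 1 at 1000 bp and 1 without GFP-targeting gRNAs. Of all features 2.5% to 10%, 2.5%, 11.9% and 2.53% were called lower in the same order. With the replicate block, the GFP-medium windows called higher were 2 of 3, with 11.25% of all features. Single gRNAs lower in GFP-negative cells were 12 with DESeq2, 0 with limma-voom, 0 with the replicate block and 3 to 14 when leaving out each library. Of all tested gRNAs 31.9%, 0%, 0% and 14.3% to 39.3% were lower in these runs. Those of the group lower in GFP-medium cells were 0 with limma-voom, 21 with the replicate block and 0 to 26 when leaving out each library. Of all tested gRNAs 0%, 39.5% and 0% to 51.6% were lower there. Each run without a GFP-medium library called 0% of all tested gRNAs lower in GFP-medium cells against the bulk. DESeq2 called 1 of the group higher in GFP-medium cells, with 0.567% of all. Between GFP-negative and GFP-medium cells DESeq2 called 10 higher and 4 lower, with 14.2% and 1.64% of all. The replicate block changed no other call beside these. The cause of these changes was not tested. A count of 0 in each library allows a mean level of up to 4.66 CPM in GFP-negative, 7.03 CPM in GFP-medium and 25.7 CPM in bulk cells.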
